A study of Mus musculus with 12 samples.

Results

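The response of the young mouse retina to 1 episode of raised intraocular pressure (IOP) was described from bulk RNA-seq of whole retinas of wild-type animals aged 3 months. In each mouse the pressure of an eye was raised to 30 mmHg for 1 h through a needle in the anterior chamber filled with balanced salt solution, and the retinas were taken at day 2. The 2 libraries from these eyes (3mo IOP) were compared with 2 libraries from contralateral eyes (3mo control). The labels call these contralateral control, and the study calls such eyes non-treated. None of the libraries is labelled as coming from an eye with a needle at normal pressure, so that here the needle and the pressure cannot be told apart. Genes entered the comparison with a mean of at least 0.5 FPKM (reads per kilobase of transcript, scaled to the mapped tags of the library) over these 4 libraries, which held for 13518 of the 25124 rows of the table. The series has 12 libraries in all. The other 8 come from animals aged 18 months treated in the same way (18mo control and 18mo IOP) and from animals aged 3 months at the first of 4 elevations (4xIOP control and 4xIOP), 2 libraries in each group. All animals were C57BL/6J, the study calls the 2 libraries of a group biological replicates, and the labels do not say which control and IOP retinas came from the same mouse.

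Raised pressure inside the eye is the main treatable factor in glaucoma, in which retinal ganglion cells and their axons are lost. The retina meets injury first with its glia. Müller glia and astrocytes turn on intermediate filaments and secreted factors, largely downstream of cytokines of the gp130 family and the transcription factor STAT3. Microglia, the resident macrophages, enlarge and take up complement and antigen presentation genes, and interferons act through STAT and IRF factors on a large set of defence genes.

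The 4 libraries held between 41526165 and 54326544 mapped tags, of which 66.0% to 71.5% lay in exons, and 3 reads in a transcript of 2000 bases correspond to 0.0276 to 0.0361 FPKM, a limit that covers counting error only. Rod markers were abundant in every library, with Gnat1, rod transducin, at 5669, 5289, 5575 and 5098 FPKM in 3mo control replicates 1 and 2 and 3mo IOP replicates 1 and 2, the order in which values of the 4 libraries are given throughout. 3mo control replicate 2 stood apart. In it the median FPKM of expressed coding transcripts under 1000 bases was 4.70 times that of transcripts of at least 4000 bases, against 1.89 in 3mo control replicate 1, 3.26 and 2.99 in the 3mo IOP libraries and 1.20 to 2.20 in the other 8. It also held most of the corneal keratin Krt12 (1.89, 25.4, 1.75 and 1.35 FPKM). Summed red blood cell genes were high in replicate 2 of both groups (31.0, 284, 46.9 and 332 FPKM). The 4 libraries further carried more RNA of pigmented and anterior eye tissue than the rest of the series, described with the genes it touches.

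At day 2, 78 genes were higher and 1 was lower in 3mo IOP than in 3mo control retinas. These are 0.577% and 0.00740% of the 13518 rows, called with limma on log2(FPKM + 0.5) where the p adjusted by Benjamini-Hochberg was 0.05 or less and the fold was 2 or more. All log2 fold changes below are on this scale, which understates the change of weakly expressed genes. The 78 genes had log2 fold changes between 1.18 and 4.58, adjusted p between 0.0160 and 0.0456, and both 3mo IOP libraries above both 3mo control libraries. Such a separation was common, in 28.0% of rows upward and in 4.07% downward, and 74.3% of all log2 fold changes were above 0 with a median of 0.13. With median-of-ratios scaling that median was -0.06 and 20 genes were called higher. Fewer still were called without a filter on low values, or with voom on read counts recovered from the FPKM, as given near the end. At an unadjusted p under 0.05, 1113 genes were higher and 31 lower. Of the 78 genes, 19 had a control mean under 0.5 FPKM and so passed the filter on low values only through the IOP libraries. The number of calls rested on single libraries. It was 254 without 3mo control replicate 2, 7 without 3mo IOP replicate 2 and 0 without replicate 1 of either group. Leaving out any of the 4 libraries kept each of the 78 log2 fold changes, chosen at 1 or more, at 1.01 or more, but moved the fold of 5 genes by over 1.5 times. Acta2 went from 2.83 without 3mo IOP replicate 1 to 4.25 without 3mo IOP replicate 2, and in the same way Tagln from 2.52 to 3.90 and Lum from 1.84 to 3.06. Mlana went from 2.97 without 3mo control replicate 2 to 4.20 without 3mo control replicate 1, and Serpina3n moved in the same way and was lowest at 3.71.

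**Figure D1:**
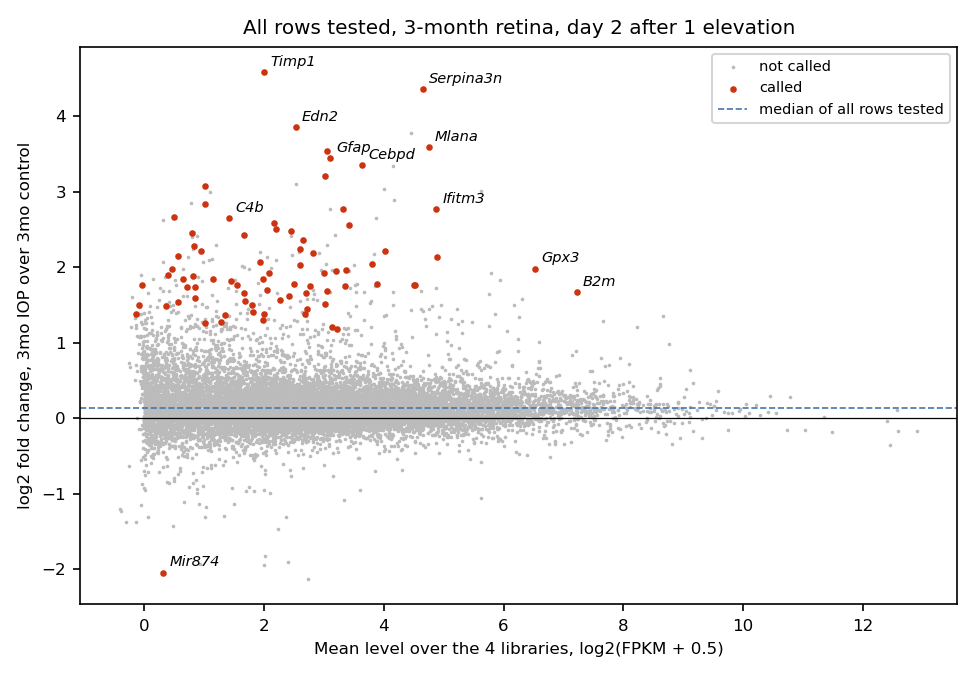
Each point is 1 of the 13518 rows tested, with its mean level over the 4 libraries as log2(FPKM + 0.5) on the horizontal axis and its log2 fold change of 3mo IOP over 3mo control on the vertical axis. The 79 called genes (red) are nearly all rises of weakly to moderately expressed genes, with Timp1 at the top and Mir874 as the single fall, and the dashed line marks the median of all rows at 0.13.

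Among called genes the 3 largest rises were in Timp1, Serpina3n and Edn2, which belong to the reactive glia list, and were followed by Mlana and Acta2, described further on with the genes of pigmented and contractile tissue. Timp1, a secreted inhibitor of matrix metalloproteinases, had 0.329 and 0.310 FPKM without and 21.0 and 17.4 FPKM with elevated pressure, a log2 fold change of 4.58 ± 0.48 (SE; adjusted p = 0.0176). Serpina3n, an acute phase serine protease inhibitor, went from 8.18 and 3.04 to 106 and 120 FPKM (log2 fold change 4.35 ± 0.56, adjusted p = 0.0305). Edn2, the vasoactive peptide endothelin 2 that injured photoreceptors are known to release, went from 0.877 and 1.18 to 24.2 and 19.0 FPKM (3.85 ± 0.40, adjusted p = 0.0176). In mm10 these genes lie at chrX:20870166-20874737, chr12:104406708-104414329 and chr4:120161206-120167360, and Timp1 overlaps Syn1 on the opposite strand, which the strand-specific counting keeps apart. In all 3 genes the gap between the groups was far wider than the spread within either. Gfap, the intermediate filament of astrocytes and stressed Müller glia, had 2.13 and 2.10 against 25.0 and 31.3 FPKM (3.44 ± 0.40, adjusted p = 0.0257). The transcription factor Cebpd had 2.43 and 4.66 against 42.5 and 36.0 FPKM (3.35 ± 0.45, adjusted p = 0.0308). Gfap was almost equal in the 2 control libraries, and Cebpd differed between them without reaching the level of either IOP library.

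Within the gp130 pathway the receptor and the feedback inhibitor were called. Socs3, which STAT3 induces and which shuts off gp130 receptors, had 0.956 and 0.801 FPKM in the untreated eyes and 7.77 and 6.09 FPKM after IOP elevation (2.42 ± 0.36, adjusted p = 0.0325). Osmr, the receptor subunit for oncostatin M, had 1.57 and 1.18 against 5.46 and 4.56 FPKM (1.56 ± 0.22, adjusted p = 0.0325). The other members did not pass. Stat3 itself had 4.85 and 2.96 against 12.7 and 11.7 FPKM (1.56 ± 0.29, adjusted p = 0.0678), the ligand Cntf 4.67 and 7.74 against 19.1 and 14.6 FPKM, and the shared receptor Il6st 8.80 and 6.23 against 12.5 and 11.99 FPKM. These levels did not overlap between the groups either. Of the 23 listed members, 2 were called and 11 were higher without overlap, against 26.8% of all rows above 0, and the median log2 fold change was 0.42, beside 0.09 over all rows above 0. Of 31 reactive glia genes, 7 were called (Gfap, Serpina3n, Osmr, Timp1, Edn2, Gbp2 and Cebpd) and 28 were higher without overlap, with a median of 1.40. This list is known from injured retina and brain and several of its genes were already known to be high in these libraries, so that its count is not independent evidence. Among acute phase genes Lcn2, which binds bacterial iron carriers, had 4.67 and 5.63 against 46.5 and 68.0 FPKM but an adjusted p of 0.128, and Saa3 was listed at 0 in both control libraries and had 120 and 33 reads (4.21 and 1.51 FPKM) in the IOP libraries.

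**Figure D2:**
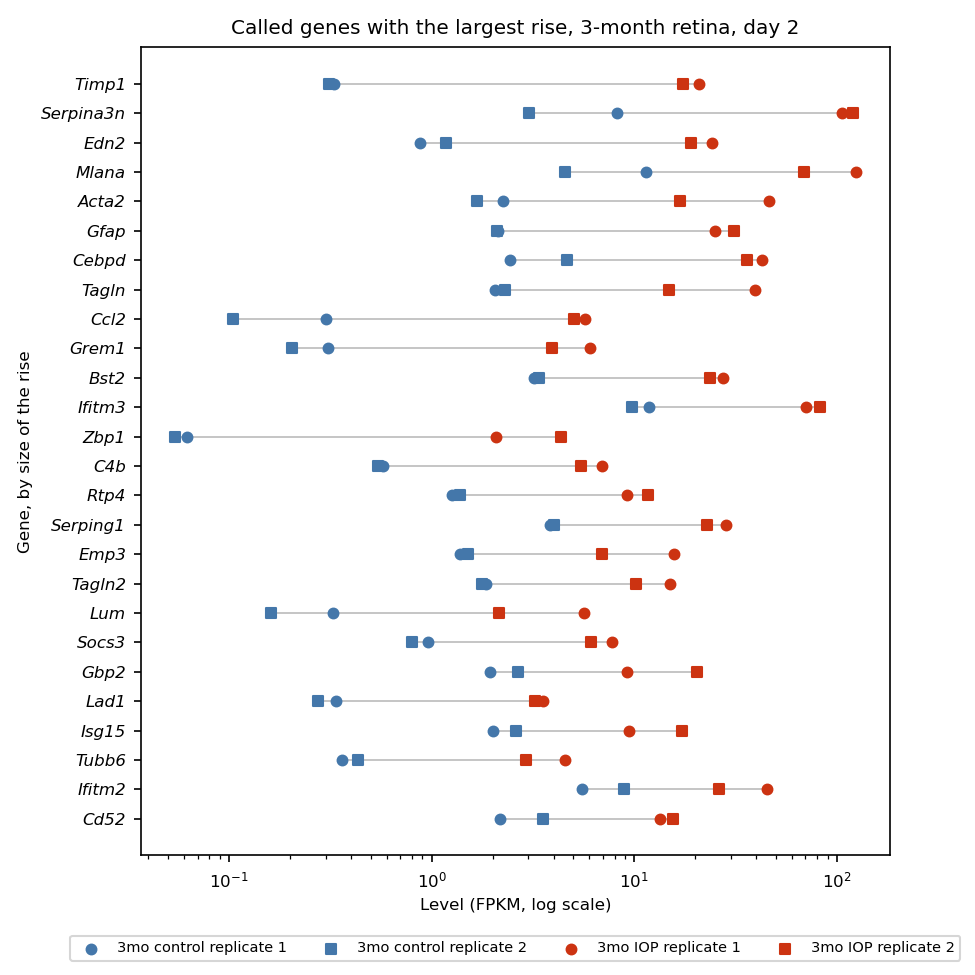
Levels in FPKM on a log axis of the 26 called genes with the largest rise, with 3mo control libraries in blue, 3mo IOP libraries in red, circles for replicate 1 and squares for replicate 2. In each gene both red points lie to the right of both blue points, and the red points of Acta2, Tagln and Lum lie farther apart than those of Timp1 or Gfap.

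By number of calls, genes that interferons induce formed the largest group among the lists. A larger share of the listed members was called among GBP and IRG GTPases (6 of 18) and MHC class I genes (6 of 21). Of 59 listed interferon-induced genes, 58 are in the table, 45 passed the filter and 14 were called: Ifit3, Isg15, Ifi27, Ifi35, Ddx58, Usp18, Bst2, Rtp4, Irf7, Parp9, Zbp1, Lgals3bp, Ifitm3 and Shisa5. The 14 calls stand beside 0.577% of all rows tested. Higher values without overlap were found for 49 genes and lower ones for none, beside 26.8% and 5.06% of all rows above 0. The median over the 57 above 0 was 1.16. Of the 45 genes, 12 had a control mean under 0.5 FPKM and so passed the filter only through the IOP libraries. Ifitm3, which blocks the entry of enveloped viruses, had 11.8 and 9.76 FPKM in the untreated eyes and 70.3 and 82.6 FPKM after IOP elevation (2.77 ± 0.24, adjusted p = 0.0160). Bst2, or tetherin, which holds budding virions at the membrane, had 3.22 and 3.38 against 27.3 and 23.7 FPKM (2.77 ± 0.26, adjusted p = 0.0160). These 2 genes and the complement gene C4b were among the genes with the smallest adjusted p of the comparison, and their replicates lay close together. Zbp1, a sensor of double-stranded nucleic acid, rested on 2 and 2 reads in the control libraries against 88 and 141 reads (0.062 and 0.054 against 2.09 and 4.37 FPKM). In Isg15, a ubiquitin-like modifier (2.02, 2.62, 9.42 and 17.2 FPKM), Ifit3, which binds foreign RNA (13.7, 13.6, 41.7 and 90.8 FPKM), and Usp18, which removes Isg15 from proteins (1.16, 1.61, 5.64 and 9.47 FPKM), both IOP libraries lay above both controls and 3mo IOP replicate 2 lay highest. The factor Irf7, which amplifies type I interferon, had 3.70, 4.59, 15.7 and 13.2 FPKM (1.69 ± 0.20, adjusted p = 0.0287). Irf9, a partner of STAT factors, had 4.65, 2.51, 13.3 and 16.6 FPKM and did not pass (adjusted p = 0.0646).

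The GTPases of the GBP and IRG families, which attack the vacuoles of intracellular parasites, were higher as well. All 18 were higher without overlap, beside 26.8% of all rows above 0, and 6 were called, with a median of 1.13. Of the 11 that passed the filter, 5 had a control mean under 0.5 FPKM and so passed only through the IOP libraries. Gbp2 had 1.93 and 2.67 against 9.21 and 20.5 FPKM (2.36 ± 0.33, adjusted p = 0.0325), Irgm1 2.43 and 2.62 against 10.6 and 13.1 FPKM, and Igtp 2.88 and 2.27 against 10.4 and 9.66 FPKM (1.78 ± 0.20, adjusted p = 0.0208). Irgm2, Gbp7 and Iigp1 had log2 fold changes of 1.73, 1.26 and 1.84. The Gbp2 difference between IOP replicates was larger than that of Irgm1 or Igtp. Members of these families and of the Ifit and Ifitm families have near-identical stretches, and only uniquely mapped tags were counted, so single members are less certain than the group.

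The promoters of the called genes were read for 2 motifs, the core of the interferon-stimulated response element (ISRE), written GAAANNGAA, and a STAT site, written TTCNNNGAA, on both strands of a window from 250 bases before to 50 bases after the RefSeq start. The 2 can overlap by their shared GAA. A window was matched by symbol for 56 of the 78 genes. An ISRE core was present in 15 of these (26.8%) against 8.05% of all 18387 matched rows, and a STAT site in 12 (21.4%) against 8.10%. For 2 further motifs with the same windows, the AP-1 site TGANTCA was present in 6 of the 56 (10.7% against 7.39% of all rows) and the kB site GGNNNTTCC in 19 (33.9% against 19.3%). Among the 10437 matched rows that passed the filter on low values, the shares were 6.87% for the ISRE core, 6.72% for the STAT site, 4.66% for the AP-1 site and 21.6% for the kB site. Of the 43 interferon-induced genes with a window, 23 held an ISRE core, and of 10 GBP and IRG genes 9 did. The windows of 6 genes follow, those of the called genes with the smallest p that held either motif, because they show how the motifs lie near the start of genes that rose. They are RefSeq sequences of GRCm38.p6, the build of mm10, with every ISRE core and STAT site in capitals.
Ifitm3, chr7:141010695-141010994, minus strand: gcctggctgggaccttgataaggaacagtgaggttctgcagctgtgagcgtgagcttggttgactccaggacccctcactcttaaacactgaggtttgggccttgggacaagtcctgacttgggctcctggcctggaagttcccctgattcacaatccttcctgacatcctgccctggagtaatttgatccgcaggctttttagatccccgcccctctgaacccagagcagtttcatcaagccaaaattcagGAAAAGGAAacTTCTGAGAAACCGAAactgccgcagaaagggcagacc
Bst2, chr8:71537423-71537722, minus strand: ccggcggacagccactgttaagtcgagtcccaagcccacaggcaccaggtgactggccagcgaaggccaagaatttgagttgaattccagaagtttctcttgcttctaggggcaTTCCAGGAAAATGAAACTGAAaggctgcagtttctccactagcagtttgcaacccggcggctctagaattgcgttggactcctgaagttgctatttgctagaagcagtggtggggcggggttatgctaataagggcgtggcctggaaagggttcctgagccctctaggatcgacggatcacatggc
Igtp, chr11:58199306-58199605, plus strand: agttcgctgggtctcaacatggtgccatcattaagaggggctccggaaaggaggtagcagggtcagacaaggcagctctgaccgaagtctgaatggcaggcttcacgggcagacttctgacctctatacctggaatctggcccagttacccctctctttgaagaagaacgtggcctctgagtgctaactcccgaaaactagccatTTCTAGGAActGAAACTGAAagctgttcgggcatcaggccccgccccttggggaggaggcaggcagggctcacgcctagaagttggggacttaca
Gfap, chr11:102897151-102897450, minus strand: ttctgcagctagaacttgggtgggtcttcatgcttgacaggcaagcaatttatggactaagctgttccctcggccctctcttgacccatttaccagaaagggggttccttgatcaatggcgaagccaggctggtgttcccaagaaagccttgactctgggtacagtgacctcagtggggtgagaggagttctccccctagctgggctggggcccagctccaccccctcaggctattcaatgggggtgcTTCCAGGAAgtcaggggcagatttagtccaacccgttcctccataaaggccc
Psmb8, chr17:34197945-34198244, plus strand: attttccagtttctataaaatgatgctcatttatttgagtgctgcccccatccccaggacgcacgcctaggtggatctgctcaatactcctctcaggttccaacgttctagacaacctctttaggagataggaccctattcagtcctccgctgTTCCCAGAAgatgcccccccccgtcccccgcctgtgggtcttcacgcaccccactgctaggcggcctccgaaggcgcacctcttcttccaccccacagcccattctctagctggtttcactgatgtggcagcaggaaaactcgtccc
Irgm2, chr11:58214727-58215026, plus strand: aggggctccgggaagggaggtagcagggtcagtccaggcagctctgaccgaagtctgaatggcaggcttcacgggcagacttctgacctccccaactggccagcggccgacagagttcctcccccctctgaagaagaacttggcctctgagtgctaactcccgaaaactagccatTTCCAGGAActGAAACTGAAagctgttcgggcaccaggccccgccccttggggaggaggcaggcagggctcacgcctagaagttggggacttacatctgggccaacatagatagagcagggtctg
In the window of Ifitm3 a run of 2 ISRE cores and a STAT site began 2 bases after the start, and in that of Bst2 a STAT site at 136 bases before the start ran into 2 ISRE cores. Igtp and Irgm2, neighbours on chromosome 11, held the same arrangement of a STAT site followed by an ISRE core, at 45 and 75 bases before the start. Gfap and Psmb8 held a STAT site alone. These matches describe the letters of the windows and say nothing about which factor was bound.

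Genes of antigen presentation by MHC class I were called in 6 of 21 cases and the median was 1.00. Of the 21, 19 were higher without overlap, beside 26.8% of all rows above 0. B2m, the light chain of every class I molecule and the most abundant of the called genes, had 80.6 and 85.6 FPKM in the untreated eyes and 282 and 251 FPKM after IOP elevation (1.67 ± 0.25, adjusted p = 0.0327). The heavy chains H2-K1 (10.1, 13.9, 51.1 and 33.6 FPKM), H2-D1 (12.3, 11.7, 49.0 and 35.9 FPKM), H2-Q4 and H2-T23 had log2 fold changes between 1.76 and 1.85. Heavy chain genes resemble each other closely, and H2-D1 shares its strand with the overlapping row H2-L. Psmb8, a subunit of the immunoproteasome, had 1.23, 2.24, 8.23 and 7.27 FPKM (1.92 ± 0.24, adjusted p = 0.0296), and the peptide transporter Tap1 had 0.566, 0.542, 5.48 and 2.95 FPKM without passing (adjusted p = 0.128). MHC class II genes were low. Of 10 genes none was called though 9 were higher without overlap, and H2-Aa had 1.25, 1.36, 2.71 and 1.46 FPKM and Cd74, the invariant chain, 0.655, 1.00, 3.20 and 1.504 FPKM.

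Of 23 complement genes 2 were called, C4b on the activating and Serping1 on the inhibiting side. C4b, shared by the classical and lectin pathways, had 0.576 and 0.544 against 6.94 and 5.47 FPKM (2.65 ± 0.23, adjusted p = 0.0160). Serping1, the inhibitor of C1 proteases, had 3.86 and 4.00 against 28.5 and 22.9 FPKM (2.55 ± 0.35, adjusted p = 0.0313). Each had close replicates in both groups. C1qc, a chain of C1q that microglia make, had 5.17, 6.95, 21.5 and 19.0 FPKM and C2 had 0.367, 0.247, 5.27 and 2.01 FPKM, and neither passed (adjusted p = 0.0877 and 0.0533). In all, 19 of the 23 were higher without overlap, beside 26.8% of all rows above 0, with a median of 1.02. Of the 15 that passed the filter, 6 had a control mean under 0.5 FPKM. Among receptors of myeloid cells the inhibitory Fc receptor Fcgr2b (0.397, 0.390, 2.60 and 2.36 FPKM), the activating Fcgr4 (0.058, 0.067, 1.10 and 1.08 FPKM) and Fcer1g, the signalling chain of activating Fc receptors (3.63, 5.08, 13.7 and 12.6 FPKM) were called. So were Lilrb4a, an inhibitory receptor (0.259, 0.113, 2.41 and 1.73 FPKM), Cd52, a small surface glycoprotein of leukocytes (2.17, 3.57, 13.5 and 15.6 FPKM), and Irf8, a factor that microglia and other myeloid cells need (0.068, 0.059, 1.03 and 0.915 FPKM). Fcgr4 and Irf8 rested on 3 to 8 reads in the control libraries.

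Microglial markers were higher in both IOP libraries without a call. Their sum over 14 genes was 46.3, 60.6, 123 and 94.5 FPKM, and the largest part in each library came from Sparc (21.3, 27.3, 67.4 and 49.2 FPKM). Of the 14, 12 were higher without overlap, beside 26.8% of all rows above 0. The homeostatic receptor P2ry12 was not among these 12 (2.01, 3.29, 2.45 and 2.95 FPKM). In whole retina, more cells of a type and more RNA per cell cannot be told apart. Of 22 genes of disease-associated microglia, 20 were higher without overlap and Cd52 and Axl, a receptor for apoptotic cells (1.29, 0.921, 4.08 and 3.17 FPKM), were called. Markers of infiltrating leukocytes summed to 8.07, 16.4, 79.3 and 22.3 FPKM. In the IOP libraries most of it came from the lysozyme gene Lyz2 (5.48, 5.12, 71.4 and 18.0 FPKM), which macrophages and microglia also use. The monocyte receptor Ccr2 had 0.027, 0.023, 0.128 and 0.134 FPKM, and up to 8 of the 18 leukocyte genes were at 0 in a library. The chemokine Ccl2, which draws monocytes, had 0.301 and 0.105 against 5.72 and 5.06 FPKM (3.08 ± 0.32, adjusted p = 0.0176), on 10 and 4 reads in control. Ccl12, a related mouse chemokine, had 0.816, 2.48, 11.6 and 23.2 FPKM and an adjusted p of 0.0544.

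Further called genes shape the matrix, the cytoskeleton and the membrane. Plau, the protease urokinase, had 2 and 4 against 218 and 91 reads (0.021, 0.036, 1.72 and 0.937 FPKM). In the list of matrix, proteases and their inhibitors 3 of 44 genes were called, Timp1 and Plau among them. Of the 44, 31 were higher without overlap, beside 26.8% of all rows above 0. Tagln2, an actin binding protein, had 1.86, 1.78, 15.1 and 10.2 FPKM, Msn, which links actin to the membrane, 3.71, 3.28, 12.01 and 8.14 FPKM, and the tubulin genes Tubb6 and Tubb2b had log2 fold changes of 2.22 and 1.21. Emp3, a small membrane protein, had 1.38, 1.51, 15.7 and 6.94 FPKM. The TNF receptor Tnfrsf1a had 0.966, 0.938, 5.65 and 3.77 FPKM (1.82 ± 0.26, adjusted p = 0.0325), the only called member of 25 genes of NF-kB signalling. Hspb8, a small heat shock protein, had 2.43, 2.69, 10.01 and 7.89 FPKM and was the only called one of 17 metallothionein and heat shock genes. Mt2, which binds zinc, had 35.0, 51.5, 148 and 99.6 FPKM without passing (adjusted p = 0.166). Of 16 genes of the endothelin system and vascular tone only Edn2 was called, and Edn1 had 0.633, 0.570, 0.743 and 0.799 FPKM.

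A separate set of called genes is known from pigmented cells, smooth muscle and connective tissue of the eye. Mlana, a melanosome protein, had 11.4 and 4.57 FPKM in the untreated eyes and 124 and 69.0 FPKM after IOP elevation (3.58 ± 0.53, adjusted p = 0.0325). Acta2 and Tagln, the contractile proteins of smooth muscle, had 2.25, 1.67, 46.0 and 16.8 FPKM (3.54 ± 0.40, adjusted p = 0.0208) and 2.06, 2.29, 39.4 and 14.8 FPKM (3.21 ± 0.39, adjusted p = 0.0287). Lum, a proteoglycan of the cornea and sclera, had 0.326, 0.162, 5.65 and 2.16 FPKM (2.45 ± 0.38, adjusted p = 0.0370). In each of these the rise was larger in 3mo IOP replicate 1. Grem1, a secreted BMP antagonist, had 0.309, 0.205, 6.02 and 3.93 FPKM (2.83 ± 0.29, adjusted p = 0.0176), and Rab38, which carries cargo to melanosomes, 1.12, 1.47, 6.65 and 3.94 FPKM. Cox8b, a muscle form of a cytochrome oxidase subunit (5.17, 7.87, 31.9 and 24.4 FPKM), and Gpx3, a secreted glutathione peroxidase (33.1, 63.2, 199 and 167 FPKM), were called as well.

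The summed levels of 3 marker lists of these tissues were higher in both IOP libraries, though not all members were. Pericyte and smooth muscle genes summed to 12.4, 12.6, 105 and 46.8 FPKM, with 9 of 12 higher without overlap, beside 26.8% of all rows above 0. In the IOP libraries most of that sum came from Acta2 and Tagln. Cornea, iris and ciliary body genes summed to 286, 371, 1070 and 545 FPKM, with 8 of 12 higher and Krt12 lower without overlap. Most of this second sum came from Ptgds, a prostaglandin synthase abundant in the ciliary body and pigment epithelium (237, 270, 915 and 453 FPKM, and at most 37.9 FPKM in the other 8 libraries). Retinal pigment epithelium genes summed to 231, 221, 720 and 325 FPKM, with 8 of 15 higher, while the highest sum in the other 8 libraries was 41.5 FPKM. The pigment epithelium list came apart on inspection. Its 7 melanin genes, separated after their values were seen, summed to 69.2, 19.7, 481 and 234 FPKM and all were higher without overlap. Its other 8 genes, of the visual cycle and Ttr among others, summed to 162, 202, 239 and 90.4 FPKM, with a median log2 fold change of -0.19, and the defining Rpe65, which regenerates the visual chromophore, had 17.6, 18.2, 20.5 and 5.59 FPKM. The melanin genes Dct (34.6, 8.08, 195 and 99.4 FPKM), Pmel (8.86, 2.90, 76.2 and 27.2 FPKM) and Tyrp1 (11.8, 3.11, 73.8 and 32.2 FPKM) were not called. The part of such tissue in the rises of Mlana, Acta2, Tagln, Lum, Grem1, Cox8b, Rab38 and Gpx3, and in those of any other gene that the iris or ciliary body expresses, was not tested.

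**Figure D3:**
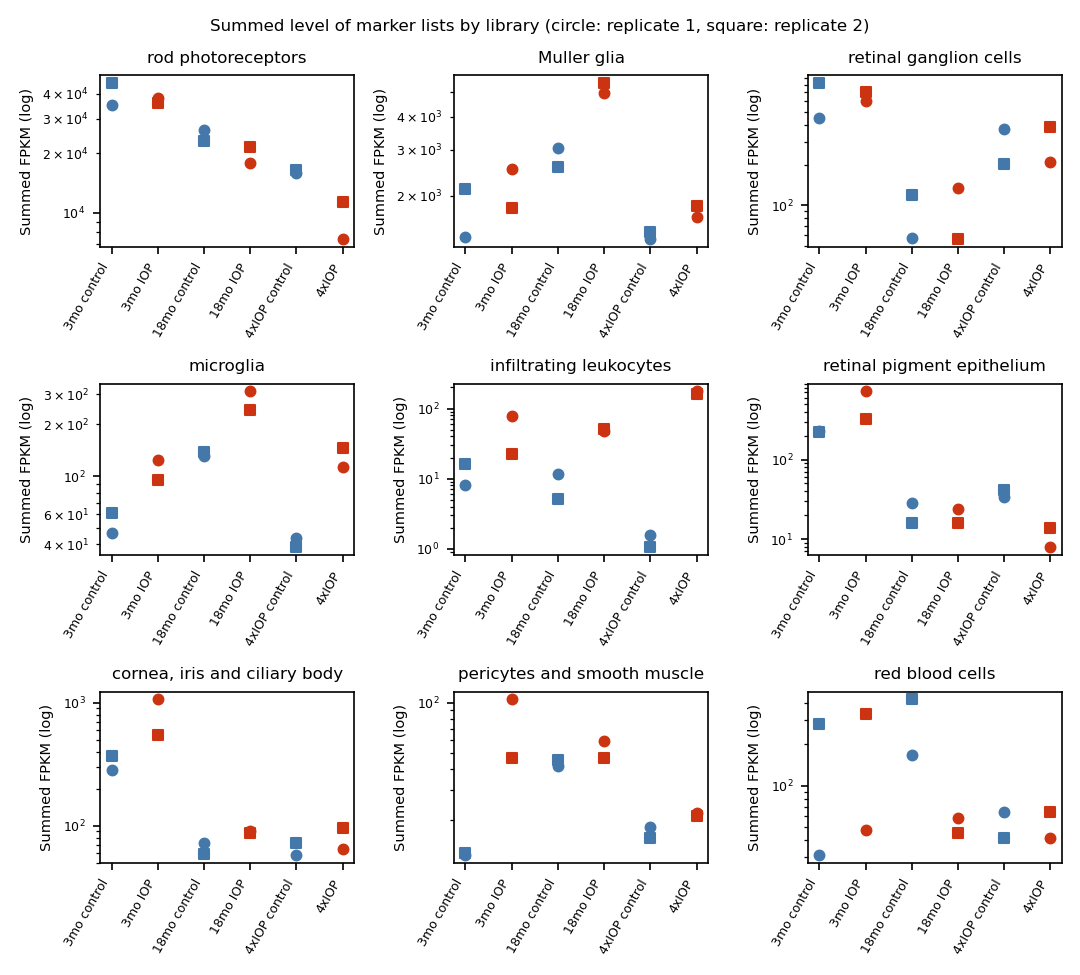
Summed FPKM on log axes of 9 marker lists in the 12 libraries, with control groups in blue, IOP groups in red, circles for replicate 1 and squares for replicate 2. The pigment epithelium list and the list for cornea, iris and ciliary body are highest in the 4 libraries of 3-month animals with a single elevation, and among these in the IOP libraries.

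Neuronal genes showed no call in either direction. Of 17 rod genes, 6 were lower and none higher without overlap, beside 5.06% lower among all rows above 0, and the median was -0.16. Nrl, the factor that fixes rod fate, had 542, 685, 580 and 509 FPKM. Neither Nrl nor Gnat1 differed beyond the spread of the control libraries. Cone genes had a median of -0.09 and bipolar genes of -0.11, with Opn1sw, the S opsin, at 132, 161, 97.9 and 134 FPKM and Grm6, the glutamate receptor of ON bipolar cells, at 11.3, 7.34, 6.64 and 7.51 FPKM. The 1 cone marker higher without overlap was Gnb3 (139, 160, 273 and 246 FPKM), which ON bipolar cells also express. Of 19 ganglion cell genes none was called and 7 were higher without overlap, beside 26.8% of all rows above 0, with a median of 0.38. Rbpms, a marker of all ganglion cells, had 5.85, 3.67, 8.10 and 9.05 FPKM, Thy1 61.2, 74.0, 79.8 and 83.4 FPKM, and Sncg 150, 443, 264 and 293 FPKM. A loss of ganglion cell RNA was not detectable at day 2 with 2 libraries a group, and the standard error of the log2 fold change of Sncg was 0.76. Of 17 Müller glia genes none was called, 7 were higher and 1 lower without overlap, and the median was 0.11. Glul, the glutamine synthetase of Müller glia, had 272, 309, 293 and 245 FPKM. Those higher without overlap included Crym (9.57, 25.2, 68.9 and 40.5 FPKM), Vim (34.7, 65.6, 174 and 85.9 FPKM) and Clu (165, 233, 586 and 353 FPKM).

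Among 26 genes of phototransduction and the visual cycle the median was -0.17 with 6 lower without overlap, and in 28 measured genes of the photoreceptor synapse it was -0.01. Immediate early genes had no call among 30, with a median of 0.46, and Junb had 4.20, 3.73, 20.9 and 13.7 FPKM (1.97 ± 0.37, adjusted p = 0.0723). No gene was called among 23 of axon injury and regeneration, 21 of the integrated stress response, 37 of p53, cell cycle arrest and apoptosis, 28 of proliferation or 25 of antioxidant defence and iron handling. Their medians lay between 0.26 and 0.39. Values without overlap that did not pass include the injury factor Atf3 (2.25, 3.28, 9.98 and 7.19 FPKM, adjusted p = 0.131), the arrest gene Gadd45b (2.01, 2.64, 14.3 and 10.8 FPKM, adjusted p = 0.0655) and the death receptor Fas (0.098, 0.454, 2.13 and 2.23 FPKM, adjusted p = 0.0775). In 38 growth and survival factors Grem1 alone was called, and Fgf2, which protects photoreceptors, had 1.36, 1.18, 7.07 and 8.28 FPKM (adjusted p = 0.131). Cholesterol synthesis, glycolysis and the circadian clock had medians between 0.06 and 0.08. Ribosomal protein genes (median 0.18) and respiratory chain genes (0.20) are short transcripts, and without 3mo control replicate 1 their medians relative to all rows were -0.63 and -0.57, against 0.68 and 0.69 without 3mo control replicate 2, so no direction can be read for them. Over all rows tested the log2 fold change fell with transcript length (Spearman rho -0.33). The genes called higher had a median length of 1732 bases, against 2750 bases over all rows tested.

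**Figure D4:**
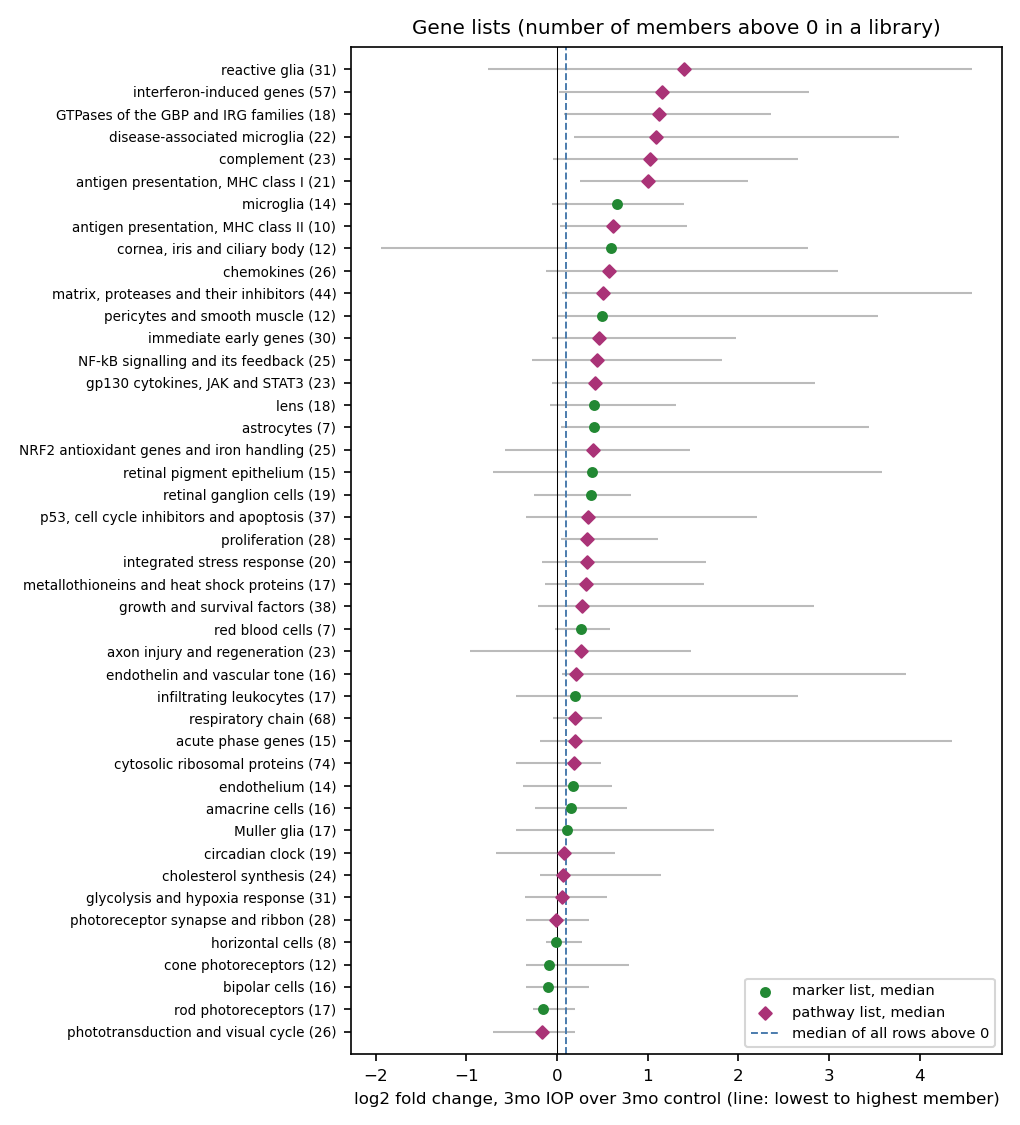
Median log2 fold change of 3mo IOP over 3mo control for each of 44 gene lists (green, 16 marker lists; purple, 28 pathway lists) over the members above 0 in a library, whose number stands in brackets, with a grey line from the lowest to the highest member. Reactive glia, interferon, GBP and IRG, complement, disease-associated microglia and class I lists have medians of 1.00 or more, and the lists of photoreceptors and their synapse lie at or below 0.

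The single called fall was Mir874, a microRNA precursor on chromosome 13 (58023125 to 58023200) that lies on the same strand inside Klhl3. It rested on 5 and 9 reads in control against 1 and 0 reads in IOP libraries (log2 fold change -2.04 ± 0.29, adjusted p = 0.0325). A poly(A) library does not capture mature microRNA, and the reads of such a short row cannot be told apart from those of its host transcript. Of the 10 falls without overlap with the smallest p, 9 were microRNA or snoRNA rows with at most 28 reads in any library, 8 of them on the strand of a host gene. The exception was Rorb, a nuclear receptor of rod development, with 28.8 and 20.8 against 15.7 and 14.5 FPKM (-0.68 ± 0.20, adjusted p = 0.280), which was not called. Tfrc, the transferrin receptor that brings iron into cells, had 54.6 and 65.6 against 35.3 and 45.4 FPKM without passing (adjusted p = 0.423). No fall of an abundant coding gene was therefore called.

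The 78 genes were then followed in the other libraries of the series. The 18-month libraries gave none of the fold changes above, but they entered the same fit and so its estimate of the spread, and with the 4 libraries of 3-month animals alone 67 genes were called. The libraries of repeated elevations were fitted apart. In 18-month retina after a single elevation, 76 of the 78 had a log2 fold change above 0 and 70 were higher without overlap, where 35.7% of all rows were. The median over the 78 was 1.10, against 1.87 at 3 months, where the genes had been chosen for their size, and 72 of the 78 had a smaller log2 fold change at 18 months. Of the 78 differences 33 had an unadjusted interaction p under 0.05 in limma, and none passed an adjusted p of 0.05. Over all 13518 rows 202 had such an unadjusted p. The 78 genes were chosen for a large 3-month fold change, which enters the interaction with a negative sign. The 72 and the 33 therefore cannot show a smaller response at 18 months. Cebpd had 3.35 ± 0.45 at 3 months and 2.13 ± 0.45 at 18 months, Gbp2 2.36 ± 0.33 and 1.34 ± 0.33, and Ifitm3 2.77 ± 0.24 and 1.42 ± 0.24. Closer values were found in some genes inside and outside the reactive glia list. Pros1, of the acute phase list, had a log2 fold change of 1.38 ± 0.18 at both ages. The interferon-induced Ifi27 had 1.18 ± 0.18 and 1.20 ± 0.18. Gfap had a log2 fold change of 3.44 ± 0.40 at 3 months and 3.37 ± 0.40 at 18 months, and Serpina3n 4.35 ± 0.56 and 4.18 ± 0.56. Osmr had 1.56 ± 0.22 and 1.78 ± 0.22. After 4 elevations 70 of the genes could be tested, 65 were higher without overlap, where 27.7% of rows were, and the median was 2.63. Genes of the reactive glia list were again high there, with log2 fold changes of 6.01 ± 0.33 in Timp1, 7.03 ± 0.38 in Serpina3n and 5.43 ± 0.31 in Edn2. B2m had 3.16 ± 0.29 and C4b 4.06 ± 0.27 there, in a table that was scaled separately, so the difference from a single elevation was not tested.

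The exceptions included the genes of pigmented and contractile tissue. Of the 78 genes, 14 had a log2 fold change under 0.5 at 18 months: Mlana, Acta2, Tagln, Grem1, Lum, Cox8b, Serpine3, Gsta3, Rab38, Mfap4, Angptl2, Cxcl12, Iigp1 and Irf7. Acta2 had 3.54 ± 0.40 at 3 months, 0.33 ± 0.40 at 18 months and 0.02 ± 0.26 after 4 elevations, Tagln 3.21 ± 0.39, 0.03 ± 0.39 and 0.19 ± 0.23, and Gsta3, a glutathione transferase, 1.92 ± 0.25, 0.02 ± 0.25 and -0.06 ± 0.30. Cox8b had 2.05 ± 0.31, 0.18 ± 0.31 and -1.495 ± 0.33. The difference between the responses of the 2 ages was tested as an interaction in limma. None of the 13518 genes passed an adjusted p of 0.05, also with voom, and 202 had an unadjusted p under 0.05. The smallest unadjusted p among negative interactions were those of Grem1 (-2.83 ± 0.41), Tagln, Acta2, Mlana (-4.12 ± 0.75) and Gsta3, and among positive ones those of Mir8102, AF357425, H2-Aa, Mir874 and Snord57. Their smallest adjusted p was 0.99992. Without 3mo IOP replicate 2, Tagln and Acta2 passed.

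**Figure D5:**
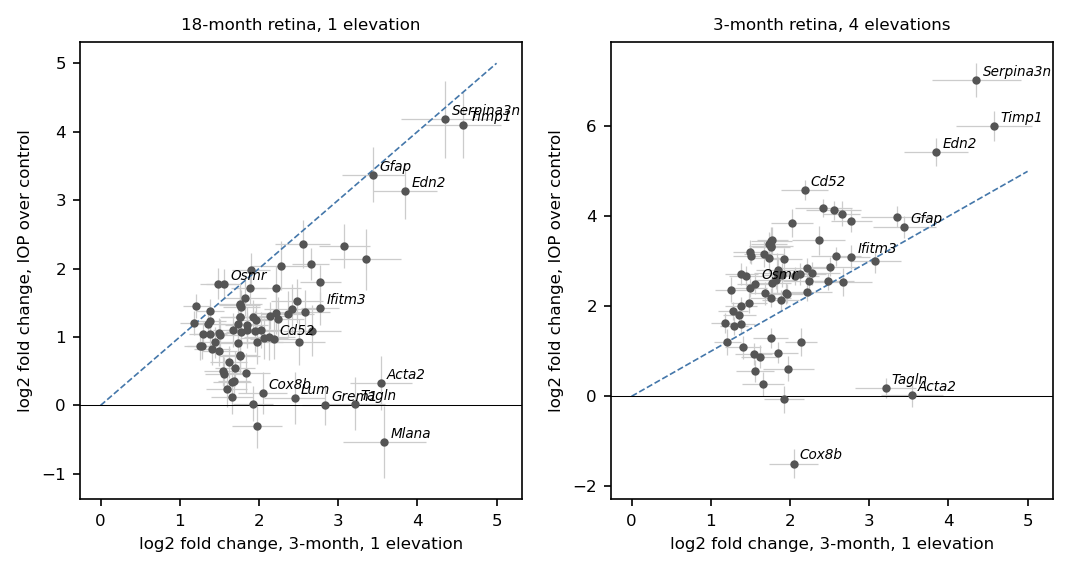
Log2 fold changes of the 78 genes called at 3 months (horizontal axis) against those after a single elevation at 18 months (left, 78 genes) and after 4 elevations (right, 70 genes), with standard errors as grey bars and the line of equality dashed. Of the 78 genes 72 lie below the line in the left panel, Gfap and Serpina3n lie near it there and above it in the right panel, and Mlana (left), Acta2, Tagln and Cox8b lie near or below 0.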

How the data were processed

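Poly(A)-enriched, strand-specific libraries were made from fresh whole retinas extracted in TRIzol. Per the submitters' processing notes reads were aligned to mm10 with STAR 2.7.8a, and per the methods HOMER was run on unique alignments, counting exonic tags of the transcribed strand for 1 isoform a locus. The deposited FPKM values are tags per kilobase of that isoform divided by the mapped tags of a library, without a stated further scaling, in separate tables for the single and the repeated elevations. The authors' own tests used DESeq2, which was not applied here, since the deposited unit is FPKM.

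FPKM times length gives reads over tags, and from this the tags of each library were recovered, and 100% of the 4243 to 7764 low values checked in a library came to within 0.1 of a whole read. Rows averaging 0.5 FPKM or more in the 4 libraries of 3-month animals were fitted as log2(FPKM + 0.5) with lmFit and eBayes (trend) in limma 3.58.1 (R 4.3.3). All 8 single-elevation libraries entered as 4 groups (4 residual and 4.155 prior degrees of freedom). The repeated-elevation table was fitted alone (2 residual). Steps were tested on simulated data.

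The 16 marker lists and 28 pathway lists were written from general knowledge. Members and lists were chosen with earlier results of these data known. List medians and overlaps are over members above 0, with no set test. Genes named are the 30 called genes with the largest rise without overlap, called falls and the 10 falls with the smallest p, called members of a list or up to 4 with the smallest p, the 4 highest of a marker list, the 5 smallest interaction p-values in each direction, the 5 most abundant called genes and the 10 largest changes not called. Some genes that this rule names are not reported here. The markers Krt12 and Ccr2 and called genes of no list, such as Msn, Tubb2b, Lilrb4a, Irf8, Rab38, Gsta3, Serpine3, Mfap4, Angptl2 and the Fc receptor genes, were named after their values were seen. Same-numbered control and IOP libraries are not stated to come from the same mouse. Alternatives were pseudocounts of 0.1 and 1, no filter, a filter at a mean of 2 FPKM, median-of-ratios and quantile scaling, eBayes without trend, a replicate block, the 4 libraries alone, removal of a length trend, voom on recovered reads and leaving out each library.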

Additional observations from a re-analysis of the deposited data

How the results depend on the processing

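The number of genes called higher (78) was between 56 and 90 with pseudocounts of 0.1 (76) and 1 (75), a mean of at least 2 FPKM (56), eBayes without a trend (90), the 4 libraries of 3-month animals alone (67), the length trend removed (66) and the adjusted p alone (78). It moved to 9 without a filter on low values, 20 with median-of-ratios size factors, 30 with quantile normalization and 3 with voom on recovered reads (C4b and Ifitm3 among them). The number called lower (1) moved to 0 without a filter, with a mean of at least 2 FPKM and with voom, and to 2 with quantile normalization. The cause of these changes was not tested. Ifitm3 and C4b were called under every one of the 11 fits that keep all the 3-month libraries, and 14 of the 78 under at least 9. Leaving out each library in turn gave 0 to 254 genes called higher and 0 to 5 lower, with the lone library of a group assumed to vary like the others. The labels do not pair same-numbered libraries, and their deviations correlated at -0.28. The replicate block gave 20 higher and 0 lower, and the crossed block, chosen after seeing the data, gave 305 higher and 15 lower. The interaction with age, 0 genes, was 2 without a filter (Mir1247 and Snora62) and 0 to 2 with a library left out, the latter also chosen after seeing the data. No named gene changed direction where it had been called, and 674 of 704 list medians kept their sign relative to all rows. With 2 libraries a group and a median standard error of 0.23 on the log2 scale, the smallest log2 fold change called was 1.18, and larger ones such as that of Stat3 (1.56) did not pass.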

Other observations

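Among the 10 largest changes that were not called were 4 genes with no values given above. Gpnmb, a glycoprotein of pigment cells and lipid-laden macrophages, had 8.36 and 3.49 FPKM in the untreated eyes and 128 and 50.8 FPKM after IOP elevation, with an adjusted p of 0.0526 in limma. Dcn, the connective tissue proteoglycan decorin, had 2.27 and 3.40 against 41.8 and 11.4 FPKM (adjusted p = 0.178). Bcl3, an atypical inhibitor of NF-kB that acts in the nucleus, had 0.079 and 0.207 against 5.31 and 3.16 FPKM (adjusted p = 0.125). The noncoding row 2900057B20Rik had 0.333 and 0.186 against 5.71 and 5.31 FPKM (adjusted p = 0.0504), the closest replicates of these.

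Lens genes held no call among 18, and 3 were higher without overlap, beside 26.8% of all rows above 0. They summed to 55.0, 78.3, 108 and 112 FPKM over the 4 libraries, with the largest part in each from Cryab, which other cells also express (29.4, 59.0, 87.4 and 51.8 FPKM). Crybb2 had 6.01 and 3.62 FPKM in the untreated eyes and 2.71 and 14.7 FPKM after IOP elevation, and Cryaa 6.48, 4.09, 2.49 and 11.7 FPKM, both high in 3mo IOP replicate 2 and lowest in 3mo IOP replicate 1.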
